A study of Mus musculus with 4 samples.

Results

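Celf1, Celf2, Mbnl1, Mbnl2, Mbnl3, Ptbp1, Ptbp3, Elavl1, Tia1 and Tial1 encode RNA-binding proteins that choose exons, and their messages were followed in thymocytes with less message of another splicing factor gene, Srsf1. The genes were taken by name from the symbols of the deposited table, where each of the 10 had 1 row among 53715 genes, and all 10 were among the 16588 genes with enough counts to be tested. The WT group consisted of 2 libraries from sorted CD4+CD8+ DP cells of the thymus of C57BL/6 mice. The KO group consisted of 2 libraries of the same cells from mice of genotype LCKCre/+ Srsf1fl/fl, in which Cre recombinase under the Lck promoter, active in early thymocytes, acts on loxP-flanked Srsf1 alleles. Mice of both groups were 6 to 8 weeks old. The labels do not say whether WT mice carried Cre, whether animals were pooled or whether replicates were separate animals, so p-values measure only the spread between these libraries, which may be technical.

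These proteins bind short sequence tracts in precursor messages and favour or block the use of nearby exons. CELF proteins bind GU-rich tracts and muscleblind (MBNL) proteins bind GC-containing tetramers, and the families drive opposite choices for many exons in mouse heart and muscle. PTBP1 binds pyrimidine tracts and mostly represses exons. TIA1 and TIAR (from Tial1) bind U-rich tracts beside weak 5′ splice sites and help recruit the U1 particle. HuR, from Elavl1, binds AU-rich elements and stabilises many messages, and in mice its loss from thymocytes disturbs their selection and exit. SRSF1 itself binds purine-rich exonic enhancers and favours exon inclusion.

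Of the 10 genes, 3 rose in the KO libraries (Tial1, Celf1 and Tia1), 1 fell (Mbnl2) and 6 were not called. The changes were small: Tial1 rose 1.26-fold, Celf1 1.22-fold and Tia1 1.21-fold, and Mbnl2 fell to 0.796 of its WT level. Calls were made with the edgeR quasi-likelihood test on genotype, at a Benjamini-Hochberg adjusted p below 0.05 over all 16588 genes. By the same rule 14.5% of all tested genes were called (6.63% higher and 7.89% lower), and 23.3% of the 9703 genes that averaged 5 or more CPM (counts scaled to the library total), a level that all 10 exceeded. The median log2 fold change was 0.19 over the 10 genes and 0.00 over all tested genes, and the median absolute log2 fold change was 0.23 against 0.34. Among all called genes, 87.8% changed by more than any of the 10. Some or all of the 4 calls ended with any 1 library left out, a fit in which 1 group has a single library. The log2 fold changes kept their sign in these fits. They were 0.31 to 0.36 for Tial1, 0.22 to 0.36 for Celf1, 0.21 to 0.35 for Tia1 and -0.37 to -0.27 for Mbnl2. DESeq2 called 4, and limma on log2 of RPKM plus 0.5 called 0 (4 passed an unadjusted p of 0.05), a fit in which Srsf1 itself had an adjusted p of 0.0731. The libraries of the KO group lay on one side of both WT libraries for 9 of the 10 genes, 6 above and 3 below, where 55.9% of all tested genes were separated in this way, and 65.3% of those averaging 5 or more CPM. The reads come from sorted bulk cells, so a larger share of cells with a message and more message per cell cannot be told apart.

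Total counts were 35862730 to 37033180 per library, and the 10 genes had between 903 and 20590 counts each in a library. Counts of the targeted gene Srsf1 were 4821 and 4485 in WT and 1839 and 1772 in KO libraries, with edgeR's log2 fold change at -1.385 (SE 0.09, adjusted p = 2.91e-06). Summed over 9 markers of double-positive thymocytes, the level was 7841 to 8155 CPM in WT and 11188 to 11568 CPM in KO libraries, with 6 of the 9 called higher and 0 lower. Markers of other cells were low: 6 B cell genes summed to 10.6 to 12.4 CPM in WT and 18.8 to 21.3 CPM in KO libraries, with Cd79b called higher. The 7 myeloid genes summed to at most 22.4 CPM and the 5 dendritic cell genes to at most 2.91 CPM. The 6 erythroid genes summed to at most 5.26 CPM and the 5 thymic epithelial genes to at most 13.4 CPM, and S100a8, Krt5 and Foxn1 had 0 counts in every library. The part of the double-positive and B cell markers in the results on the 10 genes was not tested.

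Levels are compared between genes on the RPKM scale, reads scaled to gene length and library total, as deposited by the authors. For all 10 genes the deposited length equals the merged length of all annotated exons, so genes with long alternative exons get a lower RPKM. Ptbp1 was highest, with an RPKM above that of 97.9% of tested genes, and Mbnl3 lowest, above 51.2% of them. In the WT libraries the order by mean RPKM was Ptbp1 (113), Ptbp3 (33.4), Mbnl1 (29.0), Celf1 (26.5), Celf2 (20.9), Tial1 (17.4), Mbnl2 (14.0), Tia1 (8.21), Elavl1 (7.32) and Mbnl3 (3.37). No neighbours in that order overlapped between the WT libraries, and the smallest gap in RPKM was between Tia1, with a lowest value of 8.16, and Elavl1, with a highest value of 7.62. In the KO libraries Celf1 (32.2) passed Mbnl1 (27.0) and Tial1 (21.9) passed Celf2 (19.2), and the order of the others was the same. The RPKM of Mbnl2 and Tia1 came closest there, at 10.65 in the lower KO library for Mbnl2 and 10.4 in the higher for Tia1.

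**Figure D1:**
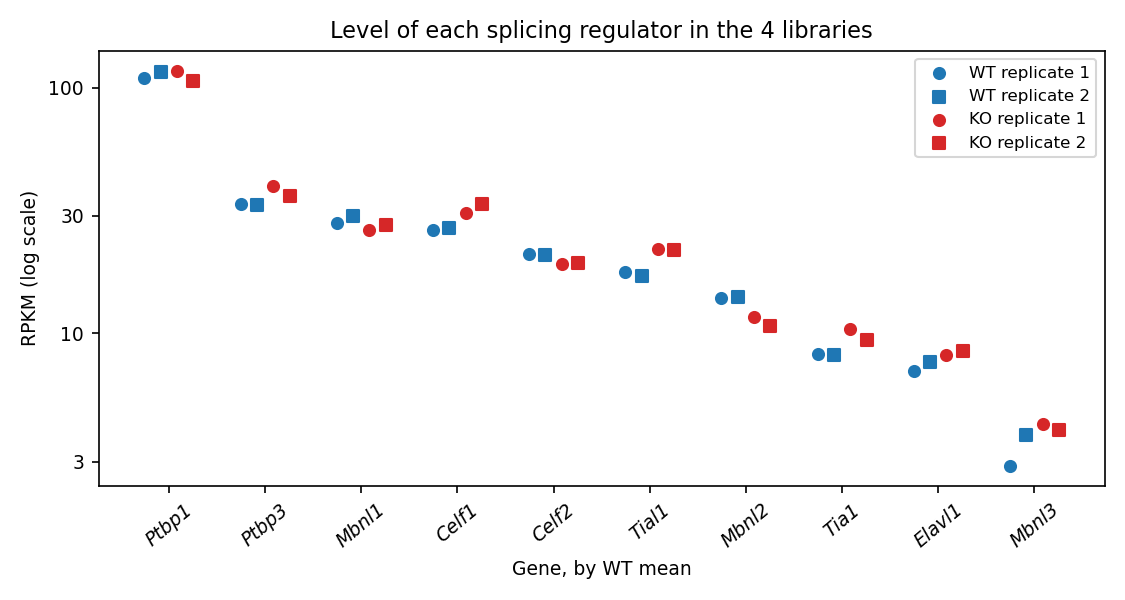
RPKM on a log scale (vertical axis) of the 10 genes (horizontal axis, ordered by WT mean), with 1 point per library, WT in blue and KO in red. Levels run from 2.88 for Mbnl3 in a WT library to 117 for Ptbp1 in a KO library, and the WT and KO points overlap in level for Ptbp1 only.

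Of the CELF pair, Celf1 rose and Celf2 was not called. Celf1 (ENSMUSG00000005506.16, chromosome 2, 90940382 to 91019497, plus strand, GRCm38) encodes CUGBP1, which controls splicing in the nucleus and the decay of GU-rich messages in the cytoplasm. Its RPKM was 26.3 and 26.7 in WT and 30.9 and 33.6 in KO libraries. Both KO libraries were above both WT libraries, and the KO libraries differed more from each other than the WT libraries did. The log2 fold change was 0.28 (SE 0.08, 95% interval 0.12 to 0.45, adjusted p = 0.0275, edgeR quasi-likelihood test), with 224 ± 2.185 CPM in WT and 272 ± 15.9 CPM in KO (mean ± SD, n = 2 libraries per group, as in all such values here). Omission of WT replicate 1 (at an adjusted p of 0.108), of WT replicate 2 (0.0712) or of KO replicate 2 (0.0876) ended the call, at log2 fold changes of 0.22 to 0.30.

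Celf2 (chromosome 2, 6539694 to 7509563, minus strand) encodes the paralogue that controls exons of signalling genes in human T cells. Its RPKM was 21.1 and 20.8 in WT and 19.1 and 19.4 in KO libraries. The groups did not overlap, with the KO libraries lower, but the difference did not pass the test (log2 fold change -0.12, 95% interval -0.26 to 0.02, adjusted p = 0.272, edgeR quasi-likelihood test). The ratio of Celf1 to Celf2 RPKM within a library was 1.25 and 1.29 in WT and 1.62 and 1.73 in KO. These ratios had to separate the groups, since Celf1 was higher and Celf2 lower in both KO libraries. With 2 libraries per group an exact permutation test cannot give a p below 0.333, so ratios and shares are given without a test. Celf1 made up 54.6% and 55.4% of the summed RPKM of the 6 Celf genes in WT and 61.2% and 61.9% in KO libraries. These shares depend on the merged exon lengths, 8446 bases for Celf1 and 25884 for Celf2. In CPM Celf2 was the higher, with means of 542 against 224 in WT and 497.5 against 272 in KO libraries.

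Of the 3 muscleblind genes, Mbnl2 fell and the others were not called. Mbnl2 (ENSMUSG00000022139.17, chromosome 14, 120275669 to 120431697, plus strand), whose product acts on exons in mouse brain and muscle, had an RPKM of 13.9 and 14.1 in WT and 11.6 and 10.65 in KO libraries. The groups were well apart, with the lower WT library at 5976 counts and the higher KO library at 5148. Means were 168 ± 1.515 CPM in WT and 133 ± 8.02 CPM in KO, at a log2 fold change of -0.33 (SE 0.08, 95% interval -0.50 to -0.15, adjusted p = 0.0161, edgeR quasi-likelihood test). The adjusted p was 0.0545 without WT replicate 1 and 0.0543 without WT replicate 2, with log2 fold changes of -0.33 and -0.32.

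Mbnl1 (chromosome 3, 60472830 to 60629750, plus strand), the main muscleblind gene of these cells, had an RPKM of 28.1 and 29.9 in WT and 26.4 and 27.6 in KO libraries. The KO libraries were lower without overlap but within a narrow range, and the difference did not pass the test (log2 fold change -0.10, 95% interval -0.25 to 0.05, adjusted p = 0.408, edgeR quasi-likelihood test). Mbnl3 (chromosome X, 51117269 to 51206532, minus strand), the least abundant of the 10 genes, had an RPKM of 2.88 and 3.86 in WT and 4.28 and 4.02 in KO libraries. Here the WT libraries were farther from each other than WT replicate 2 was from either KO library. Its log2 fold change of 0.30 had a 95% interval of -0.05 to 0.65 and did not pass the test (adjusted p = 0.257, edgeR quasi-likelihood test), and without WT replicate 1 it was 0.11. The summed RPKM of the family was 44.8 and 47.8 in WT and 42.3 in each KO library. Within that sum the share of Mbnl2 was 31.0% and 29.4% in WT and 27.4% and 25.2% in KO, while that of Mbnl3 was 6.42% and 8.06% in WT and 10.1% and 9.51% in KO.

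Neither pyrimidine tract gene was called. Ptbp1 (chromosome 10, 79854427 to 79864771, plus strand) had an RPKM of 110 and 116 in WT and 117 and 106 in KO libraries. It was the only one of the 10 genes whose groups overlapped, and its log2 fold change was -0.01 (95% interval -0.16 to 0.14, adjusted p = 0.957, edgeR quasi-likelihood test), which turned positive at 0.03 without WT replicate 2 and 0.06 without KO replicate 2. Ptbp3 (chromosome 4, 59471868 to 59549364, minus strand), a paralogue known from blood cells, had an RPKM of 33.5 and 33.2 in WT and 39.7 and 36.2 in KO libraries. The KO libraries were higher without overlap. The log2 fold change of 0.19 (95% interval 0.02 to 0.35, unadjusted p = 0.028, adjusted p = 0.125, edgeR quasi-likelihood test) did not pass, although it did without KO replicate 2 (0.25, adjusted p = 0.0381). The ratio of Ptbp1 to Ptbp3 RPKM was 3.28 and 3.48 in WT and 2.95 and 2.94 in KO libraries. The neuronal paralogue Ptbp2, whose message PTBP1 is known to keep low through an exon that triggers decay, had 99.9 and 120 CPM in WT and 106 and 94.7 CPM in KO libraries. Those groups overlapped, and the difference did not pass the test (log2 fold change -0.13, adjusted p = 0.487, edgeR quasi-likelihood test, turning to 0.01 without WT replicate 2).

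Both genes of the TIA pair rose. Tial1 (ENSMUSG00000030846.15, chromosome 7, 128439777 to 128461717, minus strand), which encodes TIAR, had an RPKM of 17.7 and 17.1 in WT and 21.9 and 21.8 in KO libraries. The replicates were close and the groups far apart in comparison, with 4382 and 4319 counts against 5608 and 5472. Means were 120 ± 2.76 CPM in WT and 151 ± 0.749 CPM in KO, at a log2 fold change of 0.33 (SE 0.08, 95% interval 0.16 to 0.50, adjusted p = 0.0154, edgeR quasi-likelihood test). It was no longer called without WT replicate 2 (0.31, adjusted p = 0.0755).

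Tia1 (ENSMUSG00000071337.11, chromosome 6, 86404219 to 86433405, plus strand), whose protein also gathers in stress granules, had an RPKM of 8.26 and 8.16 in WT and 10.4 and 9.35 in KO libraries. Both KO libraries were higher, and they differed from each other more than the WT libraries did. Means were 129 ± 1.08 CPM in WT and 156 ± 12.1 CPM in KO, at a log2 fold change of 0.27 (SE 0.08, 95% interval 0.09 to 0.45, adjusted p = 0.0476, edgeR quasi-likelihood test). This call lay at the threshold. Omission of WT replicate 1 (at an adjusted p of 0.128), of WT replicate 2 (0.15) or of KO replicate 1 (0.189) ended it, as did scaling by library size alone (0.0506) and a block for the replicate number (0.051). The proportion between the paralogues overlapped between the groups, with Tial1 at 67.7% to 68.2% of their summed RPKM in WT and 67.8% to 70.0% in KO libraries. Their summed RPKM was 26.0 and 25.3 in WT and 32.4 and 31.1 in KO libraries. The larger share of Tial1 depends on the merged exon lengths, 6903 bases for Tial1 and 15750 for Tia1. In CPM the mean of Tia1 was the higher, at 129 against 120 in WT and 156 against 151 in KO libraries.

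Elavl1 (chromosome 8, 4285382 to 4325413, minus strand), the source of HuR, had an RPKM of 7.02 and 7.62 in WT and 8.12 and 8.48 in KO libraries. The KO libraries were higher without overlap, at 84.2 and 87.9 CPM against 72.7 and 79.0 CPM. The difference did not pass the test (log2 fold change 0.18, 95% interval -0.02 to 0.39, adjusted p = 0.243, edgeR quasi-likelihood test).

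**Figure D2:**
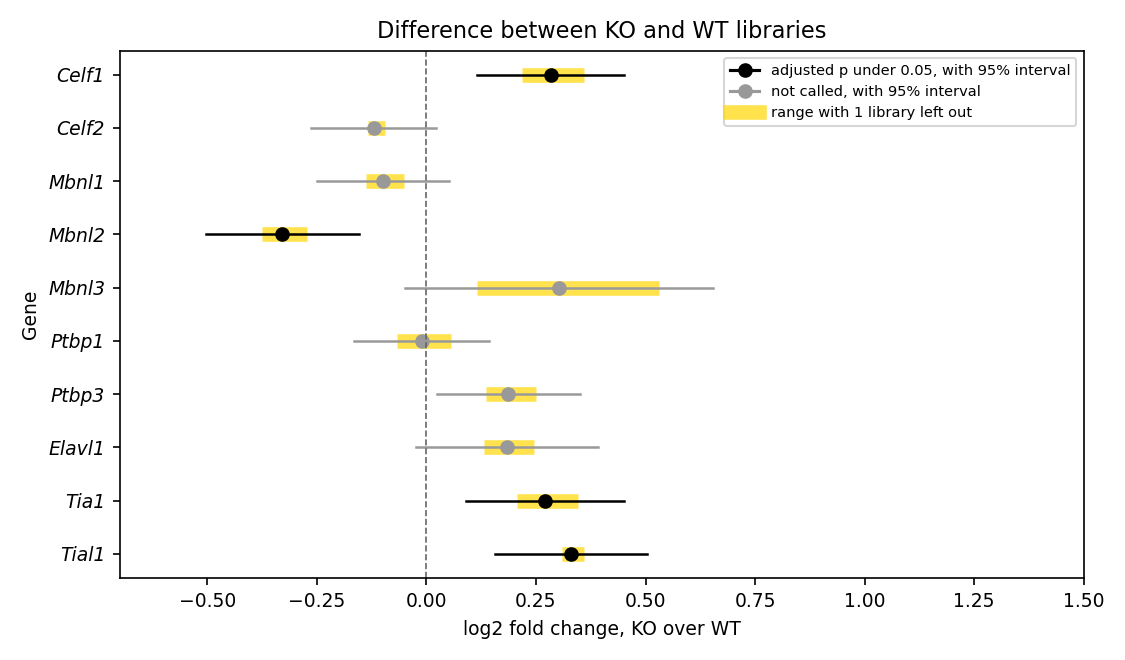
Log2 fold change of KO over WT (horizontal axis) for the 10 genes (vertical axis) from the edgeR quasi-likelihood fit, with 95% intervals as thin lines and, in yellow, the range of the estimate with each library left out in turn. Black marks the 4 called genes, with estimates from -0.33 (Mbnl2) to 0.33 (Tial1), and grey the other 6, among which the interval of Ptbp3 alone leaves out 0.

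**Figure D3:**
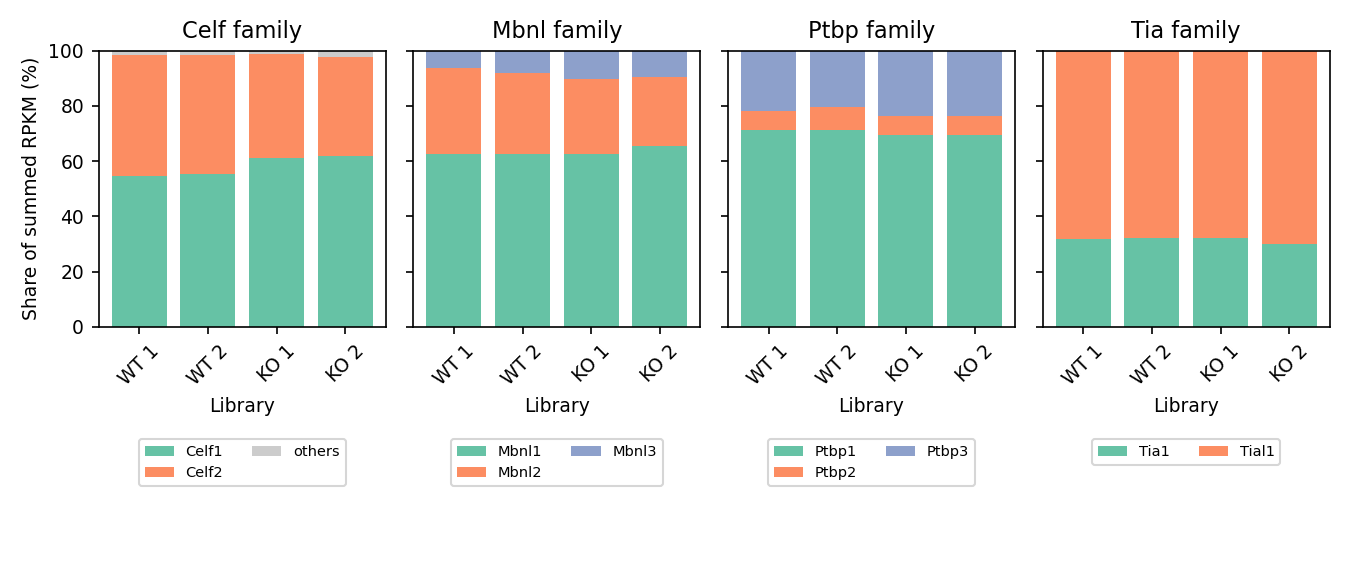
Share of each paralogue (percent, vertical axis) in the summed RPKM of its family in each library (horizontal axis), with 1 bar per library and, in the Celf panel, relatives below 2% in all libraries summed in grey. Celf1 takes 54.6% and 55.4% in WT and 61.2% and 61.9% in KO libraries, whereas the split between Tia1 and Tial1 overlaps between the groups. RPKM divides reads by merged exon length, so these are not shares of reads.

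Several of the genes share annotated exon bases with other genes, and the counting's strand setting is not given in the sources used here. Reads over shared bases cannot be told apart on the same strand, nor on opposite strands if the counting was unstranded. Celf2 shares 7.58% of its merged exon length with Gm26565 on the opposite strand. Ptbp1 shares 9.22% with Gm17134, 6.22% with E130317F20Rik and 5.3% with Plppr3, all on the opposite strand. Ptbp3 (2.77% with 1700018M17Rik), Elavl1 (1.97% with Ccl25) and Mbnl2 (0.717% with Gm26679) do so on the opposite strand, and Tia1 (2.23% with Gm44790) on the same strand. The merged exons are long, from 4740 bases for Ptbp1, longer than 65.5% of tested genes, to 25884 for Celf2, longer than 99.8%. The annotation gives 28 transcripts each for Celf2 and Tia1 and 4 for Elavl1. Gene counts do not resolve these isoforms, so splicing itself was not analysed here.

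The promoters of the 4 called genes are shown because these genes moved, 3 up and 1 down, and the sequences let their composition be compared. Each line gives the 250 bases upstream of the start in the first RefSeq entry (GRCm38.p6), 5′ to 3′ on the gene's strand, and capitals mark matches on either strand to the CCAAT box (letters CCAAT), the GC box (letters GGGCGG), the core of ETS sites (letters CCGGAA), the TATA box (letters TATAAA), the E box (letters CACGTG) or the cyclic AMP element (letters TGACGTCA).
Celf1: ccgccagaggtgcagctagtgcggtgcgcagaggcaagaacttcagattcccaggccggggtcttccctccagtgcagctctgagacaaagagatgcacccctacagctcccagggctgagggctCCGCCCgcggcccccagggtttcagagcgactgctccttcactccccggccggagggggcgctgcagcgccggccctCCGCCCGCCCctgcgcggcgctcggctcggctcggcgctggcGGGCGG
Mbnl2: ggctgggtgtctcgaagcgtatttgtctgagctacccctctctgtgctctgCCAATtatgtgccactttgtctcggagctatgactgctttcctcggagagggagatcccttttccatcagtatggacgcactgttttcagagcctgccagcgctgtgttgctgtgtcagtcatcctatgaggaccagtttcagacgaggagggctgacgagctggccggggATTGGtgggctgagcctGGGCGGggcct
Tia1: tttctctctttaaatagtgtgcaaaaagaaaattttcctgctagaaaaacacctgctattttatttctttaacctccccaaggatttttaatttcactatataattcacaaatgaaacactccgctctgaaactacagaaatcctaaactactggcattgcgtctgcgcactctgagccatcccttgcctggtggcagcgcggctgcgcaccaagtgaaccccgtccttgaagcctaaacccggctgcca
Tial1: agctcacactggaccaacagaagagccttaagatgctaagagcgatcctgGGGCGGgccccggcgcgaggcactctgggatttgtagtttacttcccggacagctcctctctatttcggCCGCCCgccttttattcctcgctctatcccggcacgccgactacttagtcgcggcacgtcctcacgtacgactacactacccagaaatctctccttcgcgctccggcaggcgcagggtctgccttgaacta
The windows are chr2:90940147-90940396 (plus strand) for Celf1, chr14:120275419-120275668 (plus) for Mbnl2, chr6:86403969-86404218 (plus) for Tia1 and chr7:128461674-128461923 (minus) for Tial1.

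The Celf1 window had a GC content of 72.4%, above 93.6% of the 32851 windows in the RefSeq table, and 4 matches to the GC box, some of them overlapping. The Tial1 window had 58.8% GC and 2 matches to the GC box. The Tia1 window had 44.0% GC, below the median of 52.4%, and none of these letters. The window of Mbnl2, the gene that fell, had 57.2% GC, 2 matches to CCAAT and 1 to the GC box. Over the 9 of the 10 genes that have an entry, taking the first of each, CCAAT was found in 4 (33.8% of all windows), the GC box in 3 (32.7%), the TATA box in 2 (12.4%), the E box in 2 (6.02%), the ETS core in 1 (12.0%) and the cyclic AMP element in 0 (1.55%). The 3 genes that rose had none of these in common, and a match describes letters only. Celf2 has 5 entries and Mbnl1 and Tial1 have 2 each, and for each of these genes the matches differ between entries.

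The close relatives outside the 10 genes, several of them known from neurons, were low apart from Ptbp2. Of 8 relatives (Celf3 to Celf6, Ptbp2 and Elavl2 to Elavl4), 5 were tested. Of these 0 were called by edgeR, with 0 at an unadjusted p under 0.05. DESeq2 called 0 as well, but gave no adjusted p for Celf5 or Elavl3. Among all tested genes 14.5% were called, and 5 genes are too few to set 0 apart from that share. Ptbp2 alone exceeded 5 CPM in any library. Celf3 had 1.65 and 1.81 CPM in WT and 1.38 and 4.67 CPM in KO libraries, so that KO replicate 2 alone was high. Celf4 (1.29 to 2.79 CPM), Celf5 (0.459 to 1.51 CPM) and Elavl3 (0.223 to 2.16 CPM) were low in every library. Elavl2 had at most 1 count in a library, and Celf6 and Elavl4 are listed at 0 in all 4.

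Of 12 tested genes in a list of 19 other regulators of alternative exons, 2 rose, 3 fell and 7 were not called (median log2 fold change 0.05). That is 41.7% called, beside 14.5% of all tested genes and 23.3% of those averaging 5 or more CPM. Rbm24, which drives muscle exons, had 51.5 and 55.8 CPM in WT and 8.94 and 8.66 CPM in KO libraries (log2 fold change -2.61, SE 0.15, adjusted p = 1.03e-06, edgeR quasi-likelihood test). Fubp1, which binds upstream of 3′ splice sites, rose from 146 ± 2.65 to 223 ± 8.16 CPM (0.61), and its relative Fubp3 rose from 51.2 ± 2.49 to 65.0 ± 1.81 CPM (0.35). Fubp3 was not called on omission of WT replicate 1 (at an adjusted p of 0.221), of WT replicate 2 (0.072) or of KO replicate 2 (0.113). The epithelial regulator Esrp1 fell from a low level, 1.255 and 3.31 CPM in WT against 0.189 and 0.467 CPM in KO libraries. Its log2 fold change of -2.78 was -1.92 without WT replicate 2 and -2.26 without KO replicate 1, and its call ended in both fits. DESeq2 gave no adjusted p for Esrp1. Of the 5 thymic epithelial markers, Krt8 had 26 and 19 counts in WT and 4 and 7 in KO libraries, lower without overlap but not called (log2 fold change -2.02, adjusted p = 0.408, edgeR quasi-likelihood test). Epcam (299 to 420 counts) and Psmb11 (42 to 54 counts) overlapped between the groups, and Krt5 and Foxn1 were at 0. The part of epithelial cells in the Esrp1 result was not tested.

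Among 14 tested genes of a list of 15 partners of these proteins at splice sites, 3 rose, 0 fell and 11 were not called (median log2 fold change 0.11). The 21.4% called lies near the 23.3% of all genes averaging 5 or more CPM. The called genes were Hnrnpm (565 ± 9.64 to 769 ± 19.3 CPM, log2 fold change 0.45, adjusted p = 0.000655) and Hnrnpf (340 ± 0.799 to 470 ± 44.0 CPM, 0.47, adjusted p = 0.00148), which encode heterogeneous nuclear ribonucleoproteins, and Snrpa (48.4 ± 3.25 to 63.1 ± 8.58 CPM, 0.39, adjusted p = 0.049), which encodes a protein of the U1 particle. These are edgeR quasi-likelihood values. Snrpa was not called when WT replicate 1 (adjusted p = 0.184) or KO replicate 1 (0.283) was left out, nor under scaling by library size (0.0543) or DESeq2's factors (0.0505). Hnrnpf shares 13.5% of its exon length with 4933440N22Rik and 13.0% with Gm43863 on the opposite strand. The co-repressor gene Raver1, the member that was not tested, is listed at 0 in all libraries, and 99.7% of its exon length is shared with Gm38431 on the same strand.

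Genes of AU-rich element binding and stress granules, where HuR and the TIA proteins act, went both ways. Of 18 tested, 4 rose, 2 fell and 12 were not called (median log2 fold change 0.025). That is 33.3% called, beside 14.5% of all tested genes and 23.3% of those averaging 5 or more CPM. Khsrp, which promotes decay of AU-rich messages, rose from 233 ± 6.26 to 324 ± 11.4 CPM (log2 fold change 0.47, adjusted p = 0.00123, edgeR quasi-likelihood test). The poly(C)-binding protein gene Pcbp1 (0.36) and the stress granule gene Caprin1 (0.35) rose too, and so did Fxr2 (0.29), which was not called on omission of WT replicate 1 (at an adjusted p of 0.0955), of WT replicate 2 (0.109) or of KO replicate 2 (0.119). Fxr1, a relative of Fxr2 that binds messages in the cytoplasm, fell from 155 ± 2.72 to 109 ± 3.47 CPM (-0.51). Zfp36l2, a decay factor of quiescent lymphocytes, fell from 1765 ± 58.2 to 1359 ± 210 CPM (-0.37), with 1210 and 1507 CPM in the KO libraries, and omitting KO replicate 1 gave a log2 fold change of -0.21 and omitting KO replicate 2 one of -0.545.

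A list of 26 genes has exons or messages known to be controlled by the 10 proteins. Of the 25 tested, 2 rose, 1 fell and 22 were not called (median log2 fold change 0.01). That is 12.0% called, beside 14.5% of all tested genes. It is below the 23.3% of genes averaging 5 or more CPM, a level that most of these genes exceeded. Clasp1, a microtubule protein gene with a muscleblind-controlled exon in mouse muscle, fell from 141 ± 1.96 to 107 ± 2.07 CPM (log2 fold change -0.40, adjusted p = 0.005665, edgeR quasi-likelihood test). Trp53 rose from 97.2 ± 4.33 to 124 ± 6.80 CPM (0.35), although not when WT replicate 1 was left out (adjusted p = 0.0913). Ccnb1, the mitotic cyclin whose message HuR binds, had 20.2 and 25.2 CPM in WT and 47.5 and 29.35 CPM in KO libraries, and its call (0.76, adjusted p = 0.0288) ended when KO replicate 1 was left out (0.39, adjusted p = 0.276). The following 6 genes were picked after their values were seen. Fas, whose exon choice TIA1 and PTBP1 control, had 57.4 and 51.05 CPM in WT and 64.3 and 70.4 CPM in KO libraries and did not pass the test (0.31, adjusted p = 0.0797, and 0.0405 without KO replicate 1). Pkm, with a PTBP1-controlled exon pair, did not pass either (0.17, 95% interval 0.02 to 0.32, adjusted p = 0.126). Lef1, an exon of which CELF2 controls in human T cells, had a log2 fold change of 0.01 (95% interval -0.15 to 0.18), and Ptprc, the CD45 gene, one of 0.02 (-0.12 to 0.15), with either turning negative when 1 WT library was left out. Among the uncalled genes with a lower level, Cd44, an adhesion receptor gene with variable exons, had 8.51 and 8.27 CPM in WT and 5.27 and 4.397 CPM in KO libraries (-0.79, unadjusted p = 0.0192, adjusted p = 0.0963, edgeR quasi-likelihood test). Cdkn1a, a cell cycle inhibitor gene whose message HuR binds, had 6.19 and 10.2 CPM in WT and 4.54 and 4.78 CPM in KO libraries (-0.81, unadjusted p = 0.0297, adjusted p = 0.13, edgeR quasi-likelihood test). The groups of both were apart, and Cdkn1a was at -0.41 without WT replicate 2 and at -1.115 and called without WT replicate 1 (adjusted p = 0.0309). Gene counts say nothing of exon choice in these genes.

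**Figure D4:**
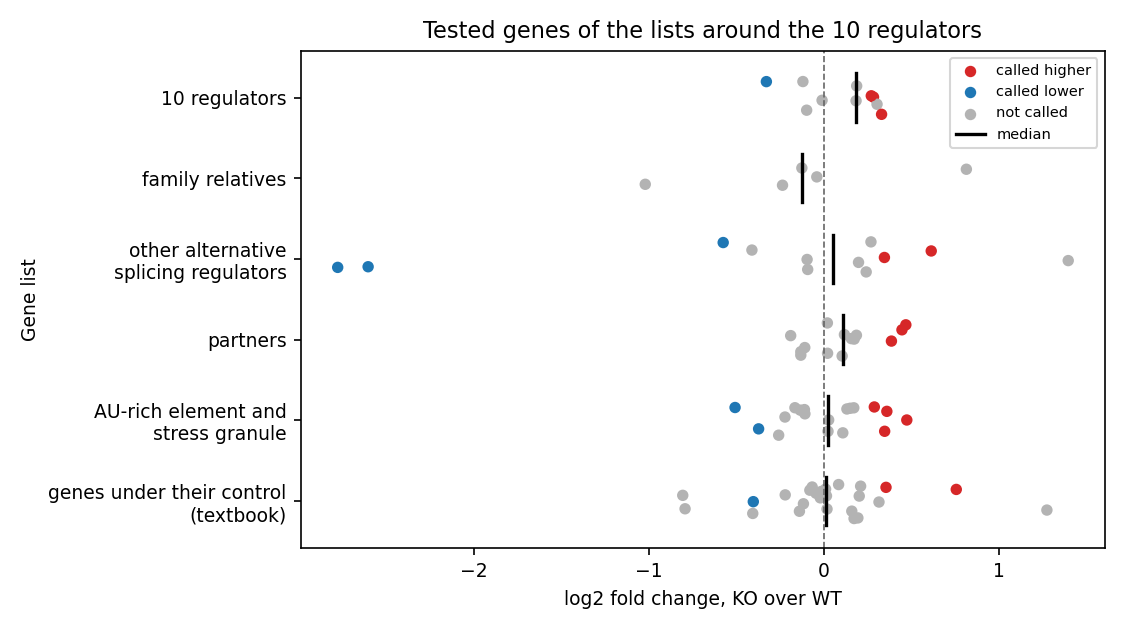
Log2 fold change of KO over WT (horizontal axis) for each tested gene of the 10 regulators and of the 5 lists around them (vertical axis), red where called higher, blue where called lower and grey where not called, with the list median as a black bar. The 10 regulators lie between -0.33 and 0.33, and Rbm24 and Esrp1 lie farthest to the left.

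Tial1 had the smallest adjusted p of the 10 genes, and its profile was set beside 9119 other genes that averaged 5 or more CPM and whose symbol is not a provisional one. By Euclidean distance of centred log2 CPM over the 4 libraries, the nearest were Tug1 (0.0163), a long noncoding RNA gene, Ahcyl1 (0.022) and Arpc5 (0.0229), with log2 fold changes of 0.34, 0.32 and 0.35. The distances rest on 4 libraries in 2 groups and are given as a description.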

How the data were processed

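Total RNA of sorted thymocytes gave 4 libraries, placed in groups from their genotype labels. The authors deposited raw counts per gene and an RPKM table with gene lengths. Per the submitters' processing notes, the tools were STAR 2.6.0a, HTSeq 0.6.1, cutadapt 1.17, DESeq2 1.24.0 and FastQC 0.11.5, on GRCm38 (mm10). Each deposited RPKM value equals the count over length and library total within a relative tolerance of 1e-06. Counts were tested two-sided with edgeR 4.0.16 in R 4.3.3 (TMM factors, filterByExpr, robust quasi-likelihood fit). Standard errors come from the log2 fold change and the F statistic, and 95% intervals from the t distribution with the total degrees of freedom of the fit. Coordinates and exon overlaps come from the GENCODE annotation of GRCm38. Alternatives were other scaling and filters, DESeq2 1.42.0, limma 3.58.1 (trend) on log2 RPKM plus 0.5 or 0.1, a replicate block, and leaving out each library, which re-estimates the spread and assumes that a lone library varies like the other group.

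Replicates differed by more than counting noise (chi-square per degree of freedom 16.7 between WT replicates and 19 between KO replicates), which does not show that they were separate animals. A single count was worth 0.027 to 0.0279 CPM. The 10 genes and the lists were chosen with earlier results of these data known. Named genes are the 10, Srsf1, the tested relatives, up to 5 called genes of each other list by adjusted p, and the 3 genes most like Tial1. Fxr2, Krt8 and the 6 uncalled known targets were added after their values were seen, and 1 called gene of the other splicing regulators is not reported here. Plots used matplotlib 3.10.9 under Python 3.11.15.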

Additional observations from a re-analysis of the deposited data

How the results depend on the processing

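Against 2408 genes and 4 of the 10 regulators called (3 higher, 1 lower), limma on log2 RPKM plus 0.5 or plus 0.1 called 0 genes and so 0 regulators and 0 members of each list, where 4289 and 4370 genes passed an unadjusted p of 0.05. With a mean RPKM of at least 1 it called 1104 genes, 0 regulators (0 higher and 0 lower, 3 at an unadjusted p under 0.05), 3 other splicing regulators and 0 known targets. DESeq2 called 2788 genes and 5 partners against 3. Leaving out each library gave 1980 to 2697 genes, 0 to 4 regulators, 0 to 3 of them higher and 0 to 1 lower, and 2 to 4 partners.

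Some log2 fold changes that were not called changed sign. With a library left out, Ptbp1 ranged from -0.066 to 0.056, Ptbp2 from -0.25 to 0.013, Celf3 from -0.33 to 1.45, Celf4 from -0.49 to 0.63, Elavl3 from -1.09 to 2.16, Ptprc from -0.034 to 0.081 and Lef1 from -0.059 to 0.10. Under limma with RPKM plus 0.1, Celf4 was at 0.0085 and Elavl3 at 0.073.

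The replicate numbers are not shown to pair libraries (correlation of deviations -0.04). With a replicate block, 2809 genes and 3 regulators were called, and Celf4 was at 0.034 and Elavl3 at 0.43. No called gene named here changed sign under any alternative. The cause of these shifts was not tested. The design holds 2 libraries per group, and the 10 genes had at least 903 counts in every library.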
